A study of Homo sapiens with 8 samples.

Results

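Amino acid transporters are membrane proteins that carry amino acids across the plasma membrane, and 10 of their genes were followed here in HuCCT1 cells, an established human cholangiocarcinoma cell line. The 10 genes (SLC7A11, SLC7A5, SLC3A2, SLC7A1, SLC1A4, SLC1A5, SLC38A1, SLC38A2, SLC6A9 and SLC7A8) were picked by name from the 34809 gene names on the array. The rule did not use their measured values, but the list was chosen with earlier results of these data known. All 10 had a probe, and 9 of them passed the filter on dim probes. SLC7A8 did not. Single-colour Agilent arrays were hybridised with RNA from cells with 1 of 4 vectors, 2 arrays per vector. The vectors shControl and shNontarget served as control. The vectors shBEX2-1 and shBEX2-2 express a short hairpin RNA against BEX2 (brain expressed X-linked 2). All cells carried a vector and no untransfected cells were compared. The methods name a retroviral vector and describe control cells as expressing a hairpin against luciferase, without saying which of the control vectors that was. The target sequences the methods give for the BEX2 hairpins are reverse complements of each other over nearly all of their length, so that the sublines do not stand for separate target sites in BEX2. Neither the labels nor the methods say whether a vector's arrays were made from separate cultures, so that each p measures only the spread between these arrays, which may be technical.

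Several transporters of the SLC7 family are light chains that work as a heterodimer with the heavy chain encoded by SLC3A2, whereas those of the SLC1, SLC6 and SLC38 families couple uptake to sodium. Together they supply cells with cystine, the large neutral amino acids, arginine, serine, glutamine and glycine. Several of these genes are known targets of ATF4, the transcription factor that cells make more of when amino acids run short, and SLC7A11 is also known as a target of NFE2L2 (NRF2).

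Each value below is the log2 of the processed intensity of a probe minus the log2 of its array's 75th percentile, called the normalized log2 value, and the brightest probe of a gene stood for it. Of 58717 non-control spots, the share well above background ranged from 59.8% to 64.6% over the arrays and none was saturated. The 75th percentile ranged from 667 to 838 intensity units among control arrays and from 441 to 631 among BEX2-knockdown arrays. All arrays shared 1 slide, with control arrays in row 1 and BEX2-knockdown arrays in row 2, so that position and group cannot be told apart. The shNontarget arrays stood apart from each other: 34.9% of the 20463 genes tested had a gap over 1 in log2 value between them, against at most 1.76% between the arrays of any other vector. No transporter had such a gap within any vector. The biliary epithelial markers KRT7, KRT19, KRT8, KRT18, EPCAM, SOX9 and CDH1 were all tested, and their mean normalized log2 value ranged from 4.62 to 5.09 on control arrays and from 5.10 to 5.22 on BEX2-knockdown arrays. KRT8 rose with a log2 fold change of 1.02, and the part of this marker in the results was not tested. No hepatocyte marker (ALB, APOA2, CYP3A4) passed the filter, and 1 each of 3 fibroblast, 2 endothelial and 3 blood cell markers did, none of them called.

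BEX2, the targeted gene, was lower on every BEX2-knockdown array than on any control array. The normalized log2 values of BEX2 were -3.36 and -3.91 with shControl, -2.70 and -3.77 with shNontarget, -5.21 and -5.54 with shBEX2-1, and -4.92 and -4.60 with shBEX2-2. The log2 fold change of BEX2-knockdown against control was -1.63 (standard error, SE, 0.32, adjusted p = 0.0116 by limma with Benjamini-Hochberg adjustment over all genes tested). That value uses both shBEX2-1 arrays, on which the probe was not well above background. With shBEX2-1, BEX2 was at least 3.22-fold lower, taking the lowest well-above-background signal of each array as the floor. With shBEX2-2 the log2 fold change was -1.32 and did not pass the threshold (adjusted p = 0.0812 by limma).

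Sequences are shown for 2 transporter probes of 60 bases, from the array files, 5′ to 3′, because they define the piece of transcript read. The SLC3A2 probe is the one tested for its gene. The SLC6A9 probe is the other probe of its gene, whereas the decline tested below came from A_33_P3402615. Each printed sequence is free of stop codons in at least 1 forward frame, which does not show that it lies in coding sequence.
SLC3A2 probe A_23_P75811, hg19 chr11:62652689-62652748, plus strand: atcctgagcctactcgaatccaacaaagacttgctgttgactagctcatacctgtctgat
SLC6A9 probe A_23_P11984, unmapped in the array's annotation: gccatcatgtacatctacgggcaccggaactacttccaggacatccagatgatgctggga
The exon that holds each probe was not looked up, since no annotation of hg19 was used here. RefSeq gave the symbol of the array for the accession of 13 of the 14 transporter probes.

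The transporters as a group were lower in BEX2-knockdown cells. Of the 9 tested, 7 passed an adjusted p of 0.05 (limma, 4 arrays against 4) and all 7 were lower, where 12.9% of all genes passed in either direction and 6.26% passed as lower. The median log2 fold change of the 9 was -0.96, against 0.027 for all genes. Because the list was chosen with earlier results of these data known, its comparison with all genes is a description and not independent support. With only the shControl arrays as control 7 passed, where 33.4% of all genes did, and with only the shNontarget arrays 3 passed (SLC7A5, SLC3A2 and SLC1A4), where 1.67% did. For 8 of the 9, all 4 BEX2-knockdown arrays lay below all 4 control arrays, as they did for 10.6% of all genes. The largest declines were those of SLC6A9, SLC3A2, SLC1A4 and SLC1A5, which were each more than 1 on the log2 scale.

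**Figure D1:**
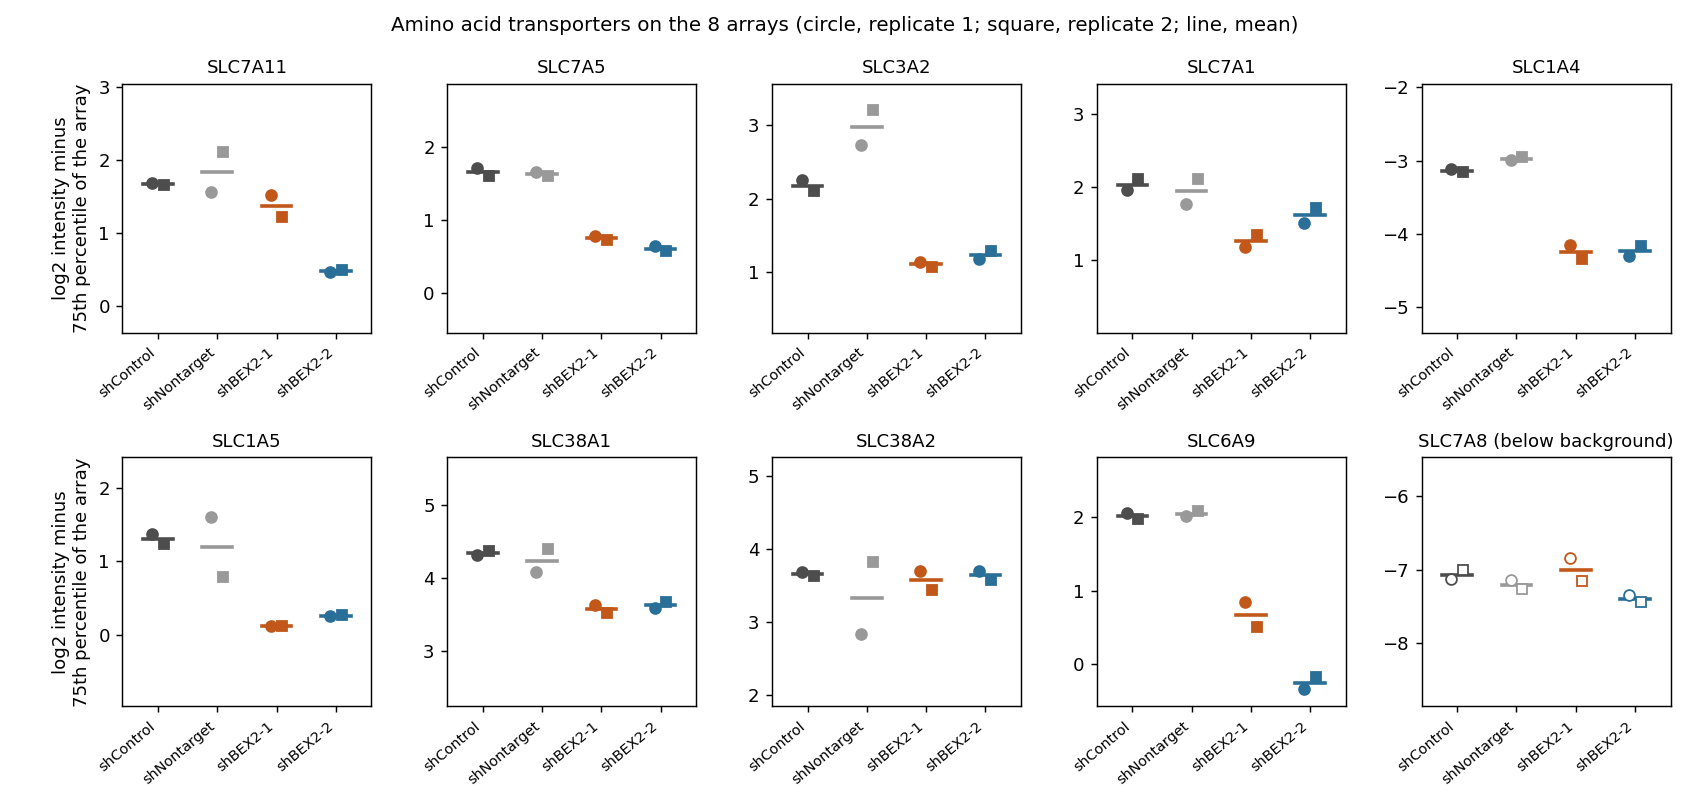
Normalized log2 value (log2 intensity minus the array's 75th percentile, vertical axis, the same span of units in each panel) of the 10 transporters by vector; circles and squares are replicates 1 and 2, lines are means of 2 arrays and open symbols are values not well above background. All BEX2-knockdown arrays sit below all control arrays for 8 genes, SLC38A2 overlaps, and SLC7A8 is not above background on any array.

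SLC7A11 encodes the light chain of the cystine/glutamate exchanger xCT, which brings in cystine for glutathione synthesis. On the arrays its normalized log2 values were 1.69 and 1.65 with shControl, 1.57 and 2.11 with shNontarget, 1.52 and 1.22 with shBEX2-1, and 0.47 and 0.50 with shBEX2-2. The shBEX2-2 arrays were far below all others, and the higher of the shBEX2-1 arrays lay only 0.045 below the lowest control array. The log2 fold change over both sublines was -0.82 (SE 0.25) and did not pass the threshold (adjusted p = 0.0640 by limma). Each subline against the control arrays gave -0.38 for shBEX2-1 (adjusted p = 0.286 by limma) and -1.27 for shBEX2-2 (adjusted p = 0.0120 by limma).

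SLC3A2 encodes the heavy chain 4F2hc (CD98), the partner that SLC7A11, SLC7A5 and SLC7A8 need to reach the cell surface. Its normalized log2 values were 2.25 and 2.10 with shControl, 2.73 and 3.21 with shNontarget, 1.13 and 1.07 with shBEX2-1, and 1.17 and 1.29 with shBEX2-2. Control and BEX2-knockdown arrays were separated by 0.81, and within the control arrays both shNontarget values were the higher. SLC3A2 fell 2.65-fold (log2 fold change -1.41, SE 0.23, adjusted p = 0.00569 by limma). By subline it was -1.47 for shBEX2-1 (adjusted p = 0.00892 by limma) and -1.34 for shBEX2-2 (adjusted p = 0.00738 by limma), which differed by -0.13 (95% confidence interval -0.59 to 0.33). Between the control vectors, SLC3A2 was 0.80 higher on the log2 scale with shNontarget, which did not pass the threshold (adjusted p = 0.408 by limma), and against the shControl arrays alone its decline was -1.01 (adjusted p = 0.000379 by limma).

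SLC7A5 encodes LAT1, the exchanger for leucine and other large neutral amino acids. The normalized log2 values of SLC7A5 were 1.72 and 1.61 with shControl, 1.66 and 1.60 with shNontarget, 0.79 and 0.73 with shBEX2-1, and 0.64 and 0.58 with shBEX2-2. Control arrays were tight (SD 0.055, n = 4), and the groups were 0.81 apart. SLC7A5 fell 1.94-fold (log2 fold change -0.96, SE 0.11, adjusted p = 0.00133 by limma). The values for the sublines were -0.88 (adjusted p = 0.0109 by limma) and -1.03 (adjusted p = 0.00473 by limma).

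SLC7A8 encodes LAT2, a further partner of SLC3A2. Its 2 probes had intensities between 2.93 and 6.53 over the 8 arrays and no array had either of them well above background, so no change is given.

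SLC7A1 encodes CAT1, which carries arginine and lysine without SLC3A2. For SLC7A1 the normalized log2 values were 1.96 and 2.11 with shControl, 1.77 and 2.11 with shNontarget, 1.19 and 1.35 with shBEX2-1, and 1.51 and 1.72 with shBEX2-2. The groups did not overlap, but the highest BEX2-knockdown array lay only 0.055 below the lowest control array. SLC7A1 fell 1.46-fold (log2 fold change -0.55, SE 0.15, adjusted p = 0.0429 by limma), the smallest decline among those called. It passed with shBEX2-1 (-0.72, adjusted p = 0.0461 by limma) and not with shBEX2-2 (-0.37, adjusted p = 0.208 by limma). Counted by p alone, SLC7A1 missed the threshold under 9 of 23 alternatives, with all 23 values lower. It also fell short of the alternative with a minimum log2 fold change of 1.

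SLC1A4 (ASCT1) and SLC1A5 (ASCT2) encode sodium-dependent exchangers of neutral amino acids, the former best known for serine and the latter for glutamine. SLC1A4 gave normalized log2 values of -3.11 and -3.16 with shControl, -3.00 and -2.95 with shNontarget, -4.15 and -4.35 with shBEX2-1, and -4.31 and -4.16 with shBEX2-2. It was a dim probe, with intensities between 24.8 and 94.0, but its groups were 1.00 apart and its replicates close. SLC1A4 fell 2.28-fold (log2 fold change -1.19, SE 0.16, adjusted p = 0.00254 by limma), with -1.20 for shBEX2-1 and -1.18 for shBEX2-2 (adjusted p = 0.0160 and 0.0126 by limma). With normexp background correction, which adds an offset, the value was -0.38 (adjusted p = 0.0542 by limma).

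SLC1A5 gave normalized log2 values of 1.37 and 1.24 with shControl, 1.61 and 0.78 with shNontarget, 0.13 and 0.12 with shBEX2-1, and 0.26 and 0.27 with shBEX2-2. The shNontarget arrays differed by 0.83, and the lower of them was the control array nearest to the BEX2-knockdown arrays, still 0.52 above the highest. SLC1A5 fell 2.08-fold (log2 fold change -1.06, SE 0.17, adjusted p = 0.00595 by limma). The log2 fold change was -1.13 with shBEX2-1 (adjusted p = 0.0408 by limma) and -0.99 with shBEX2-2 (adjusted p = 0.0486 by limma).

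SLC38A1 (SNAT1) and SLC38A2 (SNAT2) encode sodium-coupled carriers that concentrate glutamine, alanine and other small neutral amino acids in the cell. For SLC38A1 the normalized log2 values were 4.32 and 4.37 with shControl, 4.08 and 4.40 with shNontarget, 3.63 and 3.52 with shBEX2-1, and 3.60 and 3.67 with shBEX2-2. The groups were 0.41 apart and the 4 BEX2-knockdown arrays lay within a narrow range. SLC38A1 fell 1.61-fold (log2 fold change -0.69, SE 0.12, adjusted p = 0.00801 by limma), with -0.72 for shBEX2-1 and -0.66 for shBEX2-2 (adjusted p = 0.0403 and 0.0414 by limma). Its other probe, A_23_P363399, gave -0.59 (SE 0.12, adjusted p = 0.0147 by limma). By subline that probe passed with shBEX2-1 (-0.68, adjusted p = 0.0404 by limma) and not with shBEX2-2 (-0.51, adjusted p = 0.0781 by limma).

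SLC38A2 was the one tested transporter whose groups overlapped. By its brightest probe (A_23_P218079, hg19 chr12:46754625-46754684, minus strand) the normalized log2 values were 3.69 and 3.63 with shControl, 2.84 and 3.82 with shNontarget, 3.70 and 3.44 with shBEX2-1, and 3.70 and 3.58 with shBEX2-2. The lowest and the highest of all arrays were the shNontarget arrays. The log2 fold change was 0.11 (95% confidence interval -0.37 to 0.59, adjusted p = 0.788 by limma).

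The other probe for SLC38A2 gave a different picture. This probe (A_24_P295963, hg19 chr12:46752710-46752769, minus strand) lies 1915 bases from the first, towards the end of the transcript. It gave normalized log2 values of 3.55 and 3.65 with shControl, 3.38 and 3.80 with shNontarget, 2.67 and 2.86 with shBEX2-1, and 3.01 and 3.08 with shBEX2-2. Here all 4 BEX2-knockdown arrays lay below all 4 control arrays. The log2 fold change was -0.69 (SE 0.14, adjusted p = 0.0147 by limma), with -0.83 for shBEX2-1 (adjusted p = 0.0360 by limma) and -0.56 for shBEX2-2 (adjusted p = 0.0933 by limma). The direction for SLC38A2 therefore depended on the probe, and the cause of the disagreement was not tested.

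SLC6A9 encodes the glycine transporter GLYT1, and it had the largest decline of the 9. On the arrays the normalized log2 values were 2.05 and 1.98 with shControl, 2.02 and 2.09 with shNontarget, 0.84 and 0.51 with shBEX2-1, and -0.35 and -0.18 with shBEX2-2. The 4 control arrays were almost level, the shBEX2-1 arrays were lower and the shBEX2-2 arrays lower still. SLC6A9 fell 3.56-fold over both sublines (log2 fold change -1.83, SE 0.25, adjusted p = 0.00283 by limma). With shBEX2-1 the change was -1.36 (adjusted p = 0.00798 by limma) and with shBEX2-2 it was -2.30, or 4.92-fold (adjusted p = 0.00239 by limma). The other probe, A_23_P11984, whose sequence is given above, was well above background on the 4 control arrays (intensities between 72.0 and 101) and on none of the BEX2-knockdown arrays (7.91 to 16.6). By that probe, which passed the filter through the control arrays alone, SLC6A9 was 4.56-fold lower on the same floor as used for BEX2. The floor raised the values of 2 of the 4 BEX2-knockdown arrays, both with shBEX2-2. The shBEX2-1 values stood as measured, so that 4.56-fold is not a strict lower bound. It is a description with no test.

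**Figure D2:**
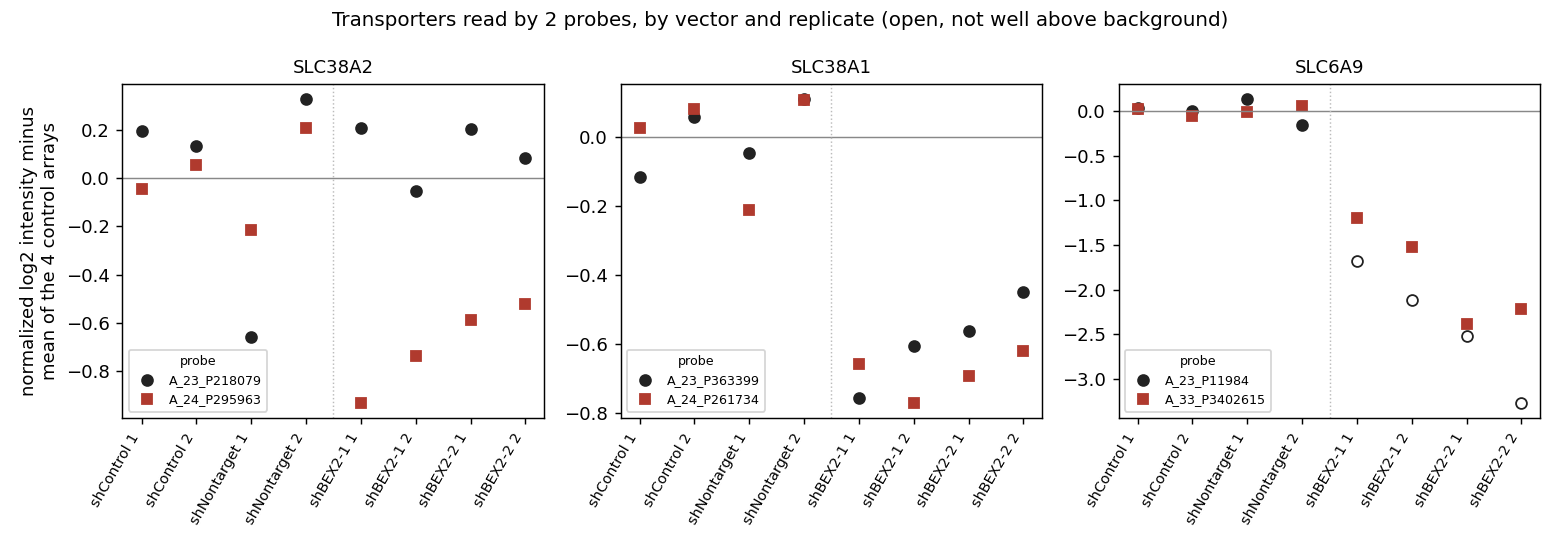
Normalized log2 value minus the mean of the 4 control arrays (vertical axis) for the 3 tested transporters with 2 probes, on each of the 8 arrays; colour and symbol mark the probe, open symbols are not well above background, and the dotted line divides control (left) from BEX2-knockdown arrays. Both probes of SLC38A1 fall, as does the tested probe of SLC6A9. The other SLC6A9 probe passed the filter through the control arrays alone and is not well above background on any BEX2-knockdown array. For SLC38A2 only A_24_P295963 is lower on all 4 BEX2-knockdown arrays.

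For a single gene, the two-sided exact permutation test over the arrays gave p = 0.0286, the smallest that 4 arrays against 4 allow, for each tested transporter except SLC38A2, whose brightest probe gave p = 0.857. Groups that do not overlap always give this smallest value, so it restates their separation. All BEX2-knockdown arrays lay below all control arrays for 10.6% of all genes. The test treats the 8 arrays as exchangeable, although each vector has 2 of them.

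Each subline was then compared with both control vectors by a model that fits every vector its own mean. The sublines share these control arrays. With shBEX2-1, 7 of 9 transporters passed as lower, where 6.97% of all genes passed in either direction and 3.59% as lower. With shBEX2-2, 7 of 9 passed as lower, where 9.66% of all genes passed in either direction and 4.81% as lower. SLC7A5, SLC3A2, SLC1A4, SLC1A5, SLC38A1 and SLC6A9 passed in both, SLC7A1 in shBEX2-1 alone and SLC7A11 in shBEX2-2 alone. With the replicate number as a block, SLC1A5 (adjusted p = 0.0527 and 0.0583 by limma) and SLC38A1 (0.0626 and 0.0639) missed the threshold in both sublines. Without the filter on dim probes, SLC1A5 (adjusted p = 0.0570 and 0.0700 by limma) and SLC38A1 (0.0652 and 0.0708) also missed it in both. With quantile normalization SLC38A1 missed it in both (adjusted p = 0.0978 and 0.107 by limma). The median log2 fold change of the 9 was -0.88 with shBEX2-1 and -1.03 with shBEX2-2. These counts moved with those of the whole array when single arrays were left out, which leaves a vector with 1 array that is assumed to vary like the others. With shBEX2-1, 0 transporters and 0 genes in all passed without either shControl array or either shBEX2-1 array, and 1 transporter passed without shBEX2-2 replicate 1 or replicate 2, where 0.865% and 0.870% of all genes did. Without shNontarget replicate 1 or replicate 2, 8 transporters passed, as did 52.9% and 52.6% of all genes. With shBEX2-2, 0 transporters and 0 genes in all passed without either shBEX2-2 array. Without shControl replicate 1 and replicate 2, 2 and 3 transporters passed with shBEX2-2, where 2.30% and 2.07% of all genes did, and without shNontarget replicate 1 and replicate 2, 8 and 9 passed, where 51.5% and 54.5% did.

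The difference between the sublines was itself tested, and no transporter passed the threshold in limma, where 0.00977% of all genes did. At an unadjusted p under 0.05, 2 of 9 transporters and 7.29% of all genes differed. These were SLC7A11, which was 0.88 higher on the log2 scale with shBEX2-1 than with shBEX2-2 (95% confidence interval 0.37 to 1.40, adjusted p = 0.283 by limma), and SLC6A9, which was 0.94 higher (0.54 to 1.33, adjusted p = 0.141 by limma). Both passed without shNontarget replicate 1 or replicate 2, where 14.4% and 14.7% of all genes passed. For the other 7 transporters the fitted differences were between -0.35 and 0.15, and their intervals reached from -0.84 to 0.71.

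Between the control vectors, 0 of 9 transporters and 0% of all genes passed in limma. At an unadjusted p under 0.05, 1 of 9 transporters (SLC3A2) and 7.66% of all genes differed. Without shNontarget replicate 1, 3 transporters passed, and without replicate 2, 4 passed, where 45.1% and 46.2% of all genes did. In these fits shNontarget is a single array, and the spread comes only from the other vectors.

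**Figure D3:**
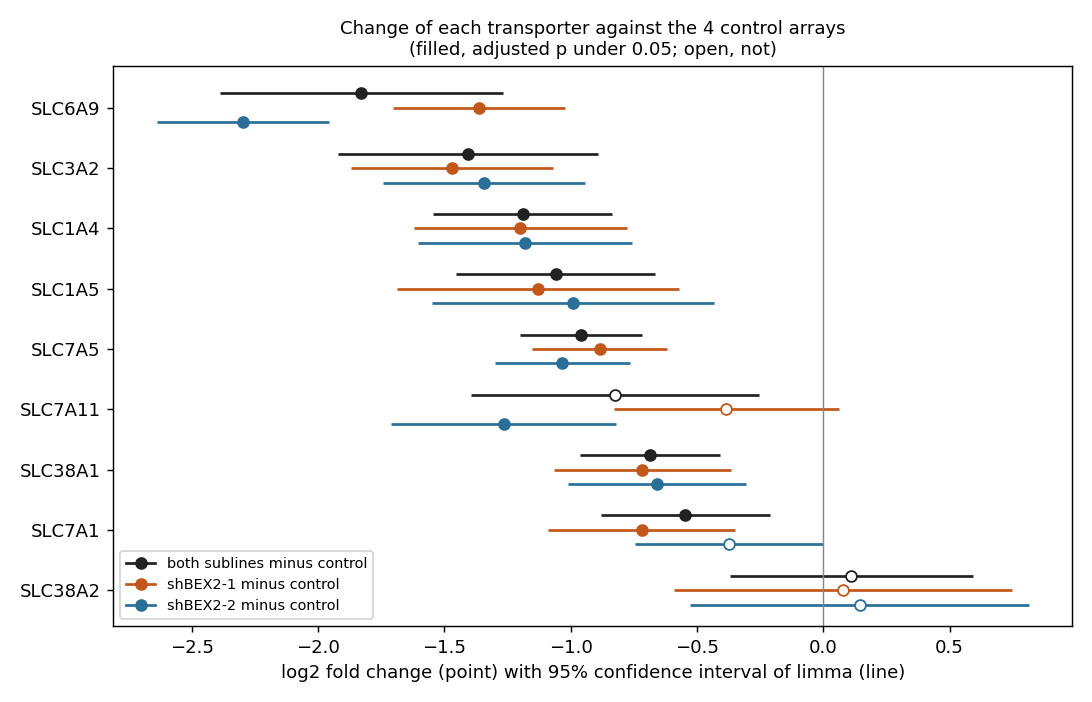
Log2 fold change against the 4 control arrays (horizontal axis, points) with limma's 95% confidence interval (lines) for the 9 tested transporters, for both sublines together (black), shBEX2-1 (orange) and shBEX2-2 (blue); filled points passed an adjusted p of 0.05. SLC6A9 and SLC7A11 show the widest gap between the sublines, and SLC38A2 by its brightest probe lies around 0.

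Beyond these 10 genes, a list of 40 further amino acid transporter genes was examined. Of the 40, from the SLC1, SLC3, SLC6, SLC7, SLC16, SLC36, SLC38 and SLC43 families, 19 were tested, 4 rose and 1 fell, where 6.68% of all genes rose and 6.26% fell, and the median log2 fold change of the 19 was 0.41. SLC36A4, a proton-independent carrier of proline and tryptophan, rose by 1.13 (adjusted p = 0.00682 by limma). SLC43A2 (LAT4), which lets large neutral amino acids pass without exchange, rose by 0.96 (adjusted p = 0.00800 by limma). SLC3A1, the heavy chain of the cystine carrier of kidney and gut, rose by 0.87 (adjusted p = 0.0360 by limma) from a level near background, and SLC7A7 (y+LAT1), which also pairs with SLC3A2, rose by 0.78 (adjusted p = 0.0139 by limma). SLC43A1 (LAT3), the close relative of SLC43A2, was the gene that fell, by 1.00 on the log2 scale (adjusted p = 0.00837 by limma). Normalized log2 values of SLC43A1 were -0.61 and -0.69 with shControl, -0.63 and -0.72 with shNontarget, -1.96 and -1.96 with shBEX2-1, and -1.46 and -1.27 with shBEX2-2. The related genes SLC43A1 and SLC43A2 thus moved in opposite directions, each with all BEX2-knockdown arrays on one side of all control arrays.

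Genes of the amino acid stress response, through which cells answer a shortage of amino acids, were lower alongside the transporters. Of 20 genes, 19 were tested, 14 fell and none rose, with a median log2 fold change of -0.84. Over all genes, 6.26% fell and 6.68% rose, and the median was 0.027. This list too was chosen with earlier results of these data known. ATF4, the transcription factor of this response, gave normalized log2 values of 7.07 and 7.04 with shControl, 7.46 and 7.14 with shNontarget, 6.82 and 6.65 with shBEX2-1, and 6.29 and 6.18 with shBEX2-2. All BEX2-knockdown arrays were below all control arrays and the shBEX2-2 arrays were the lowest. Both shBEX2-2 arrays were also the lowest for SLC7A5, SLC7A11 and SLC6A9, whereas both shBEX2-1 arrays were the lowest for SLC3A2, SLC7A1 and SLC1A5. ATF4 fell by 0.69 on the log2 scale (SE 0.19, adjusted p = 0.0470 by limma), with -0.44 for shBEX2-1 (adjusted p = 0.223 by limma) and -0.94 for shBEX2-2 (adjusted p = 0.0281 by limma).

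Of the known targets of ATF4, ASNS (asparagine synthetase) was among those that fell. Its normalized log2 values were 5.25 and 5.20 with shControl, 5.93 and 5.23 with shNontarget, 4.38 and 4.05 with shBEX2-1, and 2.89 and 2.88 with shBEX2-2. The log2 fold change was -1.85 (SE 0.36, adjusted p = 0.0119 by limma), with -1.19 for shBEX2-1 and -2.52 for shBEX2-2. DDIT3 (CHOP), a transcription factor of the same response, had a log2 fold change of -1.68 (adjusted p = 0.00111 by limma). TRIB3, a pseudokinase that restrains ATF4, had -1.26 (adjusted p = 0.00159 by limma). The largest declines of the list were those of NUPR1, a small stress-induced chromatin protein, with -2.67 (adjusted p = 0.00687 by limma), and PHGDH, the first enzyme of serine synthesis, which fell by 2.00 (adjusted p = 0.00224 by limma). EIF2AK4 (GCN2), the kinase that senses uncharged tRNA, did not pass the threshold (-0.07, adjusted p = 0.715 by limma).

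Genes that use what SLC7A11 and SLC1A5 bring in, those of glutamine, cysteine and glutathione metabolism, were mixed. Of 21 genes, 19 were tested, 3 rose and 2 fell, where 6.68% of all genes rose and 6.26% fell. The median log2 fold change was 0.083. TXNRD1 (thioredoxin reductase) rose by 1.45 (adjusted p = 0.00209 by limma) and GSR (glutathione reductase) rose by 0.57 (adjusted p = 0.0301 by limma). GPT2, which makes alanine from glutamate-derived nitrogen, had a log2 fold change of -1.30 (adjusted p = 0.00103 by limma), and CTH, which makes cysteine from cystathionine, had -1.24 (adjusted p = 0.0248 by limma). NFE2L2 did not pass the filter on dim probes, so that no change is given for it.

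Of 22 genes of amino acid sensing by mTORC1 and of the MYC network, 17 were on the array by name and 15 were tested. Of these, 1 rose and 3 fell, where 6.68% of all genes rose and 6.26% fell. The median log2 fold change was -0.11. MYC, a transcription factor known to act on SLC7A5 and SLC1A5, changed by -0.55 on the log2 scale (SE 0.12, adjusted p = 0.0171 by limma). RRAGC, a GTPase of the lysosomal sensor, had -0.84 (adjusted p = 0.00751 by limma) and TSC2, an inhibitor of mTORC1, had -0.65 (adjusted p = 0.0436 by limma). TFEB, a lysosomal transcription factor, rose by 0.87 (adjusted p = 0.0113 by limma).

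**Figure D4:**
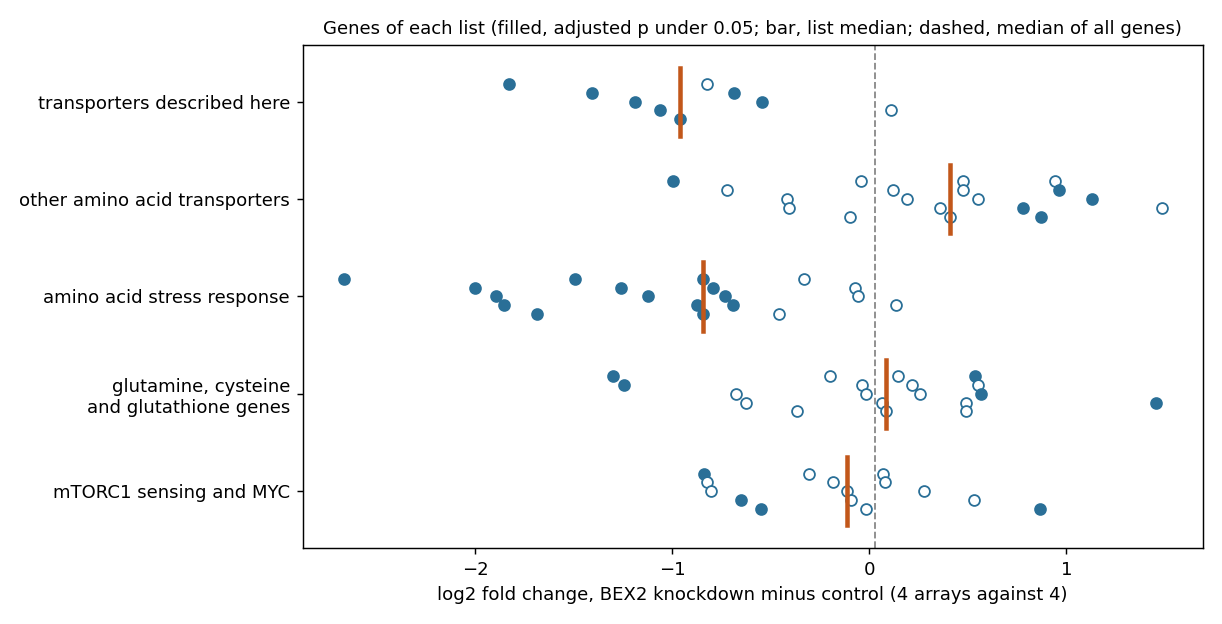
Log2 fold change of BEX2 knockdown against control (horizontal axis, 4 arrays against 4) for every tested gene of each list; filled points passed an adjusted p of 0.05, bars are list medians and the dashed line is the median of all genes. The medians of the transporters described here (-0.96) and of the stress response genes (-0.84) lie to the left of the line, whereas that of the other transporters (0.41) lies to the right.

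Promoters of these genes were searched for the letters that ATF4 and its C/EBP partners are known to bind, since the transporters and the stress response genes fell together. RefSeq promoters (GRCh38.p14, 250 bases before to 50 after each start) covered 9 of the 10 genes with 18 starts. The composite letters TGATGNAA on either strand were present in 5 of the 18 (SLC1A4, SLC1A5, SLC38A1, SLC3A2 and SLC7A1), and in 3.62% of all 35116 promoters of that length. In SLC3A2 and SLC7A1 they lay after the start. The stretches of the other 3 genes are shown because there the letters began before the start. In SLC1A4 and SLC38A1 they ran across it. All 5 genes with the letters fell, but so did 7 of the 9 tested transporters in all, so that this is not separate support. Matching letters are in capitals, 5′ to 3′ along the gene.
SLC1A4, GRCh38.p14 chr2:64989362-64989399, plus strand: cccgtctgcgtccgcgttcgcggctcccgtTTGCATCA
SLC38A1, GRCh38.p14 chr12:46266513-46266550, minus strand: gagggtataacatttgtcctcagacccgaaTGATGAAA
SLC1A5, GRCh38.p14 chr19:46784874-46784941, minus strand: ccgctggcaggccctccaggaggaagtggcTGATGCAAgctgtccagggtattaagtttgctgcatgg
For SLC1A5 this was 1 of 3 annotated starts, and for SLC1A4 and SLC38A1 it was 1 of 2 each. SLC7A5 and SLC6A9, which also fell, had no match in these windows. The E-box letters CACGTG, which MYC is known to bind, were present in 3 of the 18 member promoters (SLC1A5, SLC7A5 and SLC7A8) and in 7.26% of all. The antioxidant response element letters TGACNNNGC were in 4 of the 18 and in 13.3% of all, and SLC7A11 had no promoter entry to search. A match of letters is a description and not a binding site, and no binding was measured here.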

How the data were processed

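Total RNA of HuCCT1 cells was labelled with Cy3 by the authors with the Low Input Quick Amp method, hybridised to Agilent arrays (annotation of hg19) and read with Feature Extraction 10.7.3.1. The deposited value of each spot was the processed intensity, background-subtracted and detrended within the array with low values replaced by a surrogate (19.9% to 25.9% of non-control spots), with no scaling between arrays. A series-wide table held the same intensities and differed by at most 0.497%. Here control spots and non-uniformity outliers (3 to 15 per array) were left out, log2 was taken, each array's 75th percentile was subtracted and replicate spots were averaged. Kept probes were well above background on 4 or more of 8 arrays, and the brightest stood for its gene, leaving 20463 genes. For a probe dim on every array of a group, each array's value was raised to the lowest well-above-background signal where it was below that. The fold so obtained is a bound only where every array of the group was raised.

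BEX2-knockdown and control arrays were compared with limma 3.58.1 in R 4.3.3 (lmFit, eBayes with intensity trend, Benjamini-Hochberg, called at 0.05), in place of the rank product that the methods name. A model of the 4 vectors gave the other comparisons. Exact permutation tests used all 70 relabellings. Sequences were handled in Python 3.11.15 with pandas 2.3.3. The pipeline was tested on simulated data. The number of arrays limits the precision.

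The transporters and the gene lists were chosen with earlier results of these data known. Named genes were all 10 transporters, BEX2, ATF4, DDIT3, TRIB3, ASNS, NFE2L2, MYC, up to 4 called rises and 4 called falls of the other transporters, the 2 largest called in each direction of each other list, and the 3 genes most like SLC7A11, SLC7A5 and SLC3A2. EIF2AK4 and the cell type markers named individually stand outside this rule and were named with their values seen. Replicate numbers were taken to pair arrays across vectors, since the names of the deposited files give each number a day, without saying what was done on it. The main tests had no term for this pairing, and the replicate block was an alternative. The replicate differences of 2 vectors correlated across genes with r between -0.06 and 0.26, so that not every pair was over 0.1. Alternatives covered normalization, background correction, the deposited table, the probe filter, the mean of probes, the replicate block, the vector as a random block, each control vector alone, leaving out each array, the methods' t-test and a minimum log2 fold change of 1. Arrays of the study's other cell line were not used here.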

Additional observations from a re-analysis of the deposited data

How the results depend on the processing

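With BEX2-knockdown against control, 7 transporters passed, where 12.9% of all genes did. Leaving out any 1 array gave between 6 and 8, where 6.09% to 23.1% of all genes passed. Only shNontarget as control gave 3, where 1.67% of all genes passed. An added minimum log2 fold change of 1 gave 4, where 1160 genes in all passed. By the methods' t-test, 6 passed after Benjamini-Hochberg adjustment and 8 without it, where 10.6% and 26.5% of all genes did. Counted by p alone, without the minimum log2 fold change of 1, SLC7A5 and SLC3A2 passed under all 23 alternatives, and SLC7A11 under 5. SLC7A5 (-0.96) did not reach that minimum. With the replicate block for the pairing, 7 passed, where 12% of all genes did. By subline, 5 passed with shBEX2-1 and 5 with shBEX2-2 in place of 7 each, where 4.97% and 7.8% of all genes did. Both were without SLC1A5 and SLC38A1. The vector as a random block had an estimated correlation of -0.14 and gave 8, where 16.7% of all genes passed. With shBEX2-1, 3 passed without the filter on dim probes, where 1060 genes in all did. With shControl alone as control 4 passed, and 4 with shNontarget alone, where 5.32% and 3.14% of all genes did. Leaving out 1 array gave between 0 and 8 with shBEX2-1, 0 and 9 with shBEX2-2, 0 and 4 between control vectors, and 0 and 2 between sublines, while counts over all 20463 genes ran from 0 to 10822, 11151, 9462 and 3016. The sign of SLC38A2, uncalled by its brightest probe, turned for both sublines together, shBEX2-1 and shBEX2-2 with the mean of its probes (-0.29, -0.38 and -0.21) and with shControl alone (-0.054, -0.087 and -0.021), for shBEX2-1 with quantile normalization (-0.022), and by the other probe (-0.69). With 1 array left out it was between -0.11 and 0.22, -0.17 and 0.32, and -0.10 and 0.39. Between control vectors, uncalled values changed sign with 1 array left out for SLC7A11 (-0.10 to 0.43), SLC7A5 (-0.093 to 0.018), SLC7A1 (-0.26 to 0.082), SLC1A5 (-0.53 to 0.30), SLC38A1 (-0.26 to 0.055, and 0.059 with normexp), SLC38A2 (-0.82 to 0.16) and SLC6A9 (-0.0020 to 0.069). Between sublines they did for SLC1A4 (-0.11 to 0.081, and 0.23 with normexp) and SLC38A2 (-0.19 to 0.063). The cause was not tested.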

Other observations

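Across the 8 arrays the transporters moved together, which describes the separation of the groups as much as any likeness within them. The 28 pairs of tested transporters without SLC38A2 had Pearson's r between 0.46 and 0.98, with a median of 0.84, and the 8 pairs with SLC38A2 (brightest probe) had r between -0.45 and 0.08. The arrays share 1 slide and 4 vectors, so these values are given with no test.

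The genes whose normalized log2 values followed a transporter most closely over the 8 arrays were listed for 3 of them. For SLC7A11 they were LOC375190 (r = 0.988), FAM110C (0.983) and ZNF516 (0.982). For SLC7A5 they were VPS28 (r = 0.996), HEXIM1 (0.993) and TCTN1 (0.993). For SLC3A2 they were LHB (r = 0.996), CGB (0.993) and FAM86A (0.993), of which LHB and CGB belong to a family of near-identical genes, so that their values are uncertain.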
